A study of Saccharomyces cerevisiae with 10 samples.

Results

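RSC1 and RSC2 encode alternative subunits of the same chromatin remodeller of budding yeast, and the transcripts of a strain without Rsc2 (rsc2Δ) were compared here with those of a strain without Rsc1 (rsc1Δ). The comparison used 2 libraries of the 10 in the series and covered 6020 genes of the 6931 rows listed. A gene was included if its row named 1 gene, had the authors' status OK in both libraries and reached 5 FPKM in 1 of the 2. FPKM is the number of fragments scaled for the length of the transcript and for the depth of the library. The rsc2Δ values were first put on the scale of the rsc1Δ table through the wild-type (WT) library that both tables hold. Ratios are log2 of rsc2Δ over rsc1Δ after 1 FPKM was added to each, so a positive ratio is a higher level in rsc2Δ.

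Both strains were haploid S288C segregants, dissected from diploids that were heterozygous for the rsc mutation, and were grown in logarithmic phase in YPD, a rich glucose medium. Their titles give 10 generations. RNA selected for polyadenylation was sequenced. The 4 other libraries of the same experiment, WT and the deletions rtt102Δ, npl6Δ and htl1Δ of further RSC subunits, are given below only as levels. Each strain had 1 library from 1 culture, so no difference could be tested against the spread between cultures, and a difference between the deletions and one between these particular segregants cannot be told apart.

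RSC uses the energy of ATP, through its motor subunit Sth1, to slide and evict nucleosomes, and it keeps the promoters of many genes clear of them. Rsc1 and Rsc2 are products of a gene duplication, each with bromodomains, which bind acetylated lysines, and a BAH domain. A single complex holds one or the other, and cells survive without either one but not without both.

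The deleted genes were absent or nearly absent from their own libraries, and each remaining paralog stood at about its level elsewhere. RSC1 (YGR056W, chromosome VII, 601661 to 604447, sacCer3) was at 0.0390 in rsc1Δ and 24.2 FPKM in rsc2Δ, and at 26.4 in WT, 25.5 in rtt102Δ, 29.7 in npl6Δ and 25.1 FPKM in htl1Δ. RSC2 (YLR357W, chromosome XII, 841331 to 844050) was at 30.7 FPKM in rsc1Δ and was listed at 0 in rsc2Δ, with 26.7 to 30.3 FPKM in the other 4 libraries. RSC1 in rsc2Δ was thus below the lowest of those 4, and RSC2 in rsc1Δ above the highest, both by less than 1 FPKM. Among the other 15 subunit genes none differed 2-fold. The highest ratio was 0.55 for LDB7, at 153 in rsc1Δ and 225 FPKM in rsc2Δ. The lowest was -0.35 for RSC58, an essential subunit, at 68.7 in rsc1Δ and 53.9 FPKM in rsc2Δ. STH1 itself was at 52.0 in rsc1Δ and 59.2 FPKM in rsc2Δ, a ratio of 0.18.

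The auxotrophic markers were alike in kind in rsc1Δ and rsc2Δ. LEU2 and URA3 were listed at 0 in both libraries, and LYS2, of lysine synthesis, was at 0.0506 in rsc1Δ and 0.109 FPKM in rsc2Δ. CAN1, LYP1, TRP1, MET17 and ADE2 were present in both. MET17, the homocysteine synthase gene, was at 53.5 in rsc1Δ and 142 FPKM in rsc2Δ, a ratio of 1.40, while it was listed at 0 in rtt102Δ, npl6Δ and htl1Δ. The labels give no mating type, but rsc1Δ, rsc2Δ, rtt102Δ and htl1Δ held the transcripts of a cells and WT and npl6Δ those of alpha cells, as described with the mating-type genes. From the spacing of the lowest values, the libraries were estimated to hold about 9850000 fragments for rsc1Δ and 11700000 for rsc2Δ. The estimate took as length that of the locus less 200 bp. In rsc1Δ and rsc2Δ, a level of 5 FPKM then stood for about 49 and 58 fragments on 1 kb of such length. On 300 bp of it, the level stood for about 15 and 18 fragments. Whole loci of 1 kb or 300 bp thus held fewer fragments at 5 FPKM, above all the short ones.

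Between the paralog deletions 219 genes were at least 2-fold higher in rsc2Δ, 3.64% of those measured, and 143 were at least 2-fold lower, 2.38%. Together these 362 genes made up 6.01%. The median ratio of all genes was -0.012, with 2934 genes above 0. The 5th percentile was -0.75 and the 95th percentile 0.85. Near the limit, 41 genes lay within 0.05 below it and 41 within 0.05 above it. In another experiment of the series, htl1Δ and WT strains that both made Htl1 from a galactose promoter differed 2-fold at 1.68% of genes. They were grown in medium that switches this promoter on. That single pair differs from rsc1Δ and rsc2Δ in experiment, medium and strains, so it does not measure the spread between cultures here.

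**Figure D1:**
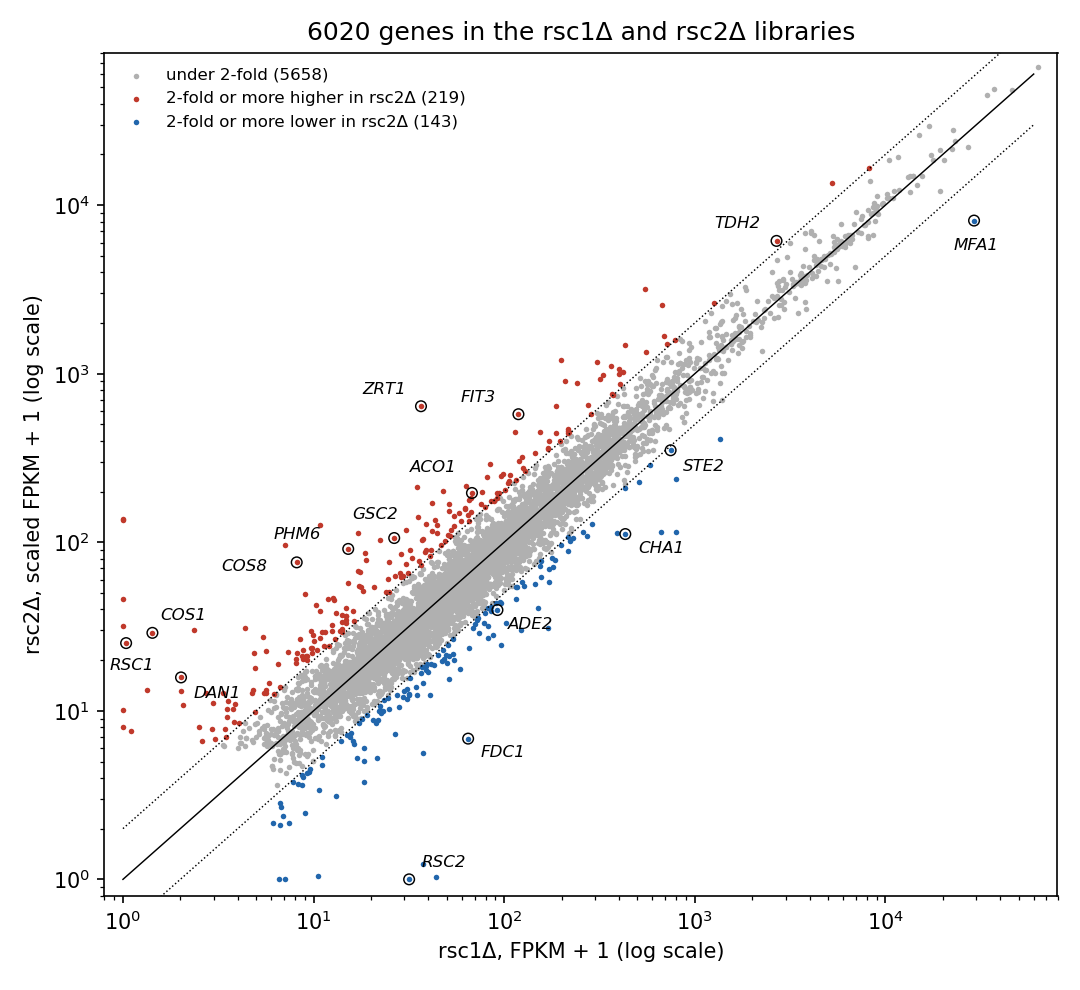
Level of each gene in rsc1Δ (horizontal) and in rsc2Δ (vertical), both in FPKM plus 1 on log scales. Each point is 1 gene, the solid line marks equal levels and the dotted lines 2-fold; red points (219) are higher and blue points (143) lower in rsc2Δ, and circled genes are named in the text.

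The 2-fold genes were also ranked over the 6 libraries. Of the 219 higher genes, rsc2Δ had the highest level of the 6 libraries at 155, rsc1Δ the lowest at 136, and both held at 87. Of the 143 lower genes, rsc2Δ had the lowest level at 111, rsc1Δ the highest at 60, and both held at 47. Over all genes measured, rsc2Δ was highest at 20.5% and lowest at 21.4%, and rsc1Δ highest at 14.4% and lowest at 14.0%. Selecting genes by this ratio raises such shares, so they describe where the genes lay and test nothing.

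Apart from the deleted genes, repeated families and genes listed at 0, the highest ratio was that of ZRT1 (YGL255W, chromosome VII, 20978 to 22108), the high-affinity zinc transporter of the plasma membrane. It was at 35.6 in rsc1Δ and 640.4 FPKM in rsc2Δ, and at 156 in WT, 158 in rtt102Δ, 407 in npl6Δ and 361 FPKM in htl1Δ. The rsc1Δ library had the lowest level of the 6 and the rsc2Δ library the highest, 18.0 times that of rsc1Δ, a log2 ratio of 4.13. The transcription factor Zap1 activates ZRT1 when zinc is scarce. Other genes of zinc supply did not share the difference. ZAP1 itself was at 9.57 in rsc1Δ and 14.6 FPKM in rsc2Δ, ZRT3, the vacuolar exporter, at 107 in rsc1Δ and 97.5 FPKM in rsc2Δ, and ZRT2, the low-affinity transporter, at 159 in rsc1Δ and 112 FPKM in rsc2Δ. The zinc-regulated genes ADH4 and ZPS1 were lower in rsc2Δ, with ratios of -0.75 and -0.92. Of the 12 zinc and copper genes measured, 1 was 2-fold higher, 0 were 2-fold lower and 4 were above 0, with a median of -0.16. The window from 250 bases before to 50 after the ZRT1 start (chrVII:20728-21027, R64, plus strand, from RefSeq) is shown because it holds the core of the element that Zap1 is known to bind, CCTTNAAGG, in capitals:
ZRT1: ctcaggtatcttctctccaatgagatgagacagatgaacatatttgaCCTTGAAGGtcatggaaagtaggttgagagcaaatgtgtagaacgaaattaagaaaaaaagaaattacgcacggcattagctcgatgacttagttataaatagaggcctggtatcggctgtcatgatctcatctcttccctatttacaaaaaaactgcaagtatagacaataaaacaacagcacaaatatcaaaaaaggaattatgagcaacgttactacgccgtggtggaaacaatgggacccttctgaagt
That sequence, searched on both strands, was present in 26 of 6001 protein-coding promoter windows, or 0.433%. The 26 measured genes with it had a median ratio of -0.0046, beside -0.014 for those without it.

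Genes of iron uptake divided. FIT2 and FIT3 encode wall mannoproteins that hold iron-siderophore complexes at the cell surface. FIT3 was at 118 in rsc1Δ and 574 FPKM in rsc2Δ, with 56.4 to 268 FPKM in the other 4 libraries, and FIT2 at 113 in rsc1Δ and 450.3 FPKM in rsc2Δ, with 43.5 to 195 FPKM. Both were highest in rsc2Δ, while rsc1Δ lay within the range of the others, and the ratios were 2.28 and 1.99. HMX1, the heme oxygenase gene, was at 14.1 in rsc1Δ and 56.5 FPKM in rsc2Δ (ratio 1.93), and the third wall mannoprotein gene, FIT1, at 2.55 in rsc1Δ and 10.5 FPKM in rsc2Δ (ratio 1.69). FET4, a low-affinity iron transporter, went the other way, at 144 in rsc1Δ and 55.2 FPKM in rsc2Δ and 109 to 171 FPKM elsewhere, with rsc2Δ the lowest of all 6 and a ratio of -1.36. The high-affinity ferroxidase FET3 and its permease FTR1 were at -0.33 and -0.19, and the siderophore transporters ENB1, SIT1 and ARN1 at -0.84, -0.25 and 0.53. In all, 4 of 32 measured iron genes were 2-fold higher, 1 was 2-fold lower and 12 were above 0, with a median of -0.21. The promoters of FIT2 (chrXV:1059281-1059580, plus strand), FIT3 (chrXV:1061006-1061305, minus strand) and FET4 (chrXIII:914489-914788, minus strand) are shown together because genes with the same short element moved apart. The element is GCACCC, the core bound by the iron regulator Aft1, in capitals on either strand:
FIT2: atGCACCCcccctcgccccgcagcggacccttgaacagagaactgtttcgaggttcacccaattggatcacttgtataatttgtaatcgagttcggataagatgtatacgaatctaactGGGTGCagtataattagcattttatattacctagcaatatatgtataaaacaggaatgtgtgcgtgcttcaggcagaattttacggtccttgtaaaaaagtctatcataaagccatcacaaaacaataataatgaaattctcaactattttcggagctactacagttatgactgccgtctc
FIT3: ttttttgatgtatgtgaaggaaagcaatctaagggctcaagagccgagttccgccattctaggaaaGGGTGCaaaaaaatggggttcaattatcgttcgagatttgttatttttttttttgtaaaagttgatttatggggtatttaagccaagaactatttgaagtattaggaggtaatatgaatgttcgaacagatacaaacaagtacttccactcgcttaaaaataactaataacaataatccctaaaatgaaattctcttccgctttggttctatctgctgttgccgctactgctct
FET4: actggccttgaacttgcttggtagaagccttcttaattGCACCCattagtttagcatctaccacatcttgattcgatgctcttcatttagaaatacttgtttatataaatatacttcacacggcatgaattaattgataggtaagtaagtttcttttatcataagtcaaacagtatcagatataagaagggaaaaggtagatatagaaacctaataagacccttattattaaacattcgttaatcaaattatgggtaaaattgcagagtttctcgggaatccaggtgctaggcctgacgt
It was present in 4.25% of all promoter windows and in 16 of the 32 iron genes. The iron genes with it had a median ratio of -0.25 and those without it one of -0.082. Of all 227 measured genes with it, 7.05% were 2-fold higher and 2.64% 2-fold lower, with a median of -0.021. FIT1, FIT2 and FIT3 are among these higher genes. Of the 5254 genes without it, 2.97% were higher and 1.90% lower, with a median of -0.014. The shares were given no test.

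**Figure D2:**
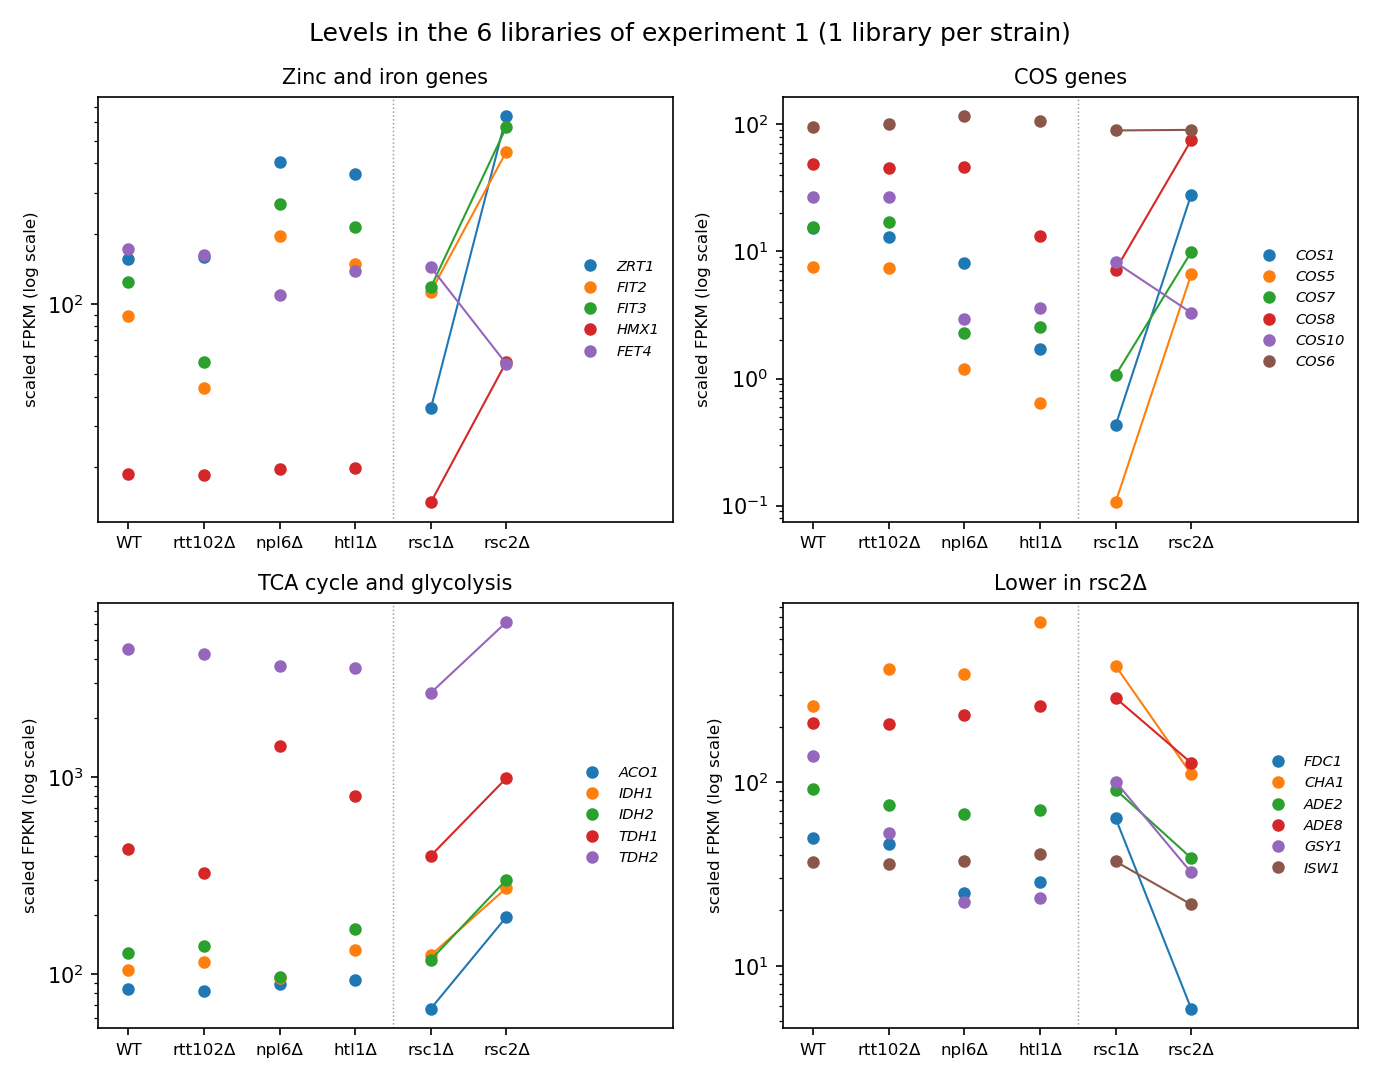
Levels of selected genes in each of the 6 libraries of experiment 1, in FPKM on log scales, with 1 point per library and a line joining rsc1Δ and rsc2Δ. ZRT1 ran from 35.6 to 640.4 FPKM and FDC1 from 63.7 to 5.84 FPKM between the paralog deletions, while COS6 stayed at 89.5 and 90.5 FPKM.

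Several of the highest ratios belonged to COS genes, a family of similar membrane proteins that act in sorting cargo to the vacuole and most of whose genes lie near chromosome ends. COS1 (YNL336W, chromosome XIV, 8330 to 9475) was at 0.427 in rsc1Δ and 28.0 FPKM in rsc2Δ, and at 15.3 in WT, 12.9 in rtt102Δ, 8.14 in npl6Δ and 1.71 FPKM in htl1Δ. COS8 was at 7.16 in rsc1Δ and 75.0 FPKM in rsc2Δ, and at 13.2 to 48.5 FPKM elsewhere. COS7 was at 1.06 in rsc1Δ and 9.89 FPKM in rsc2Δ, and COS5 at 0.106 in rsc1Δ and 6.59 FPKM in rsc2Δ. In rsc1Δ all 4 of these genes had their lowest level of the 6 libraries. COS7 and COS5 were also low in npl6Δ, at 2.27 and 1.18 FPKM, and in htl1Δ, at 2.55 and 0.639 FPKM. In rtt102Δ they were at 16.9 and 7.39 FPKM. In rsc2Δ COS1 and COS8 were above WT and COS5 and COS7 below it, at 7.52 and 15.7 FPKM in WT. The ratios were 4.35, 3.22, 2.78 and 2.40. COS10 went the other way, with 8.20 in rsc1Δ and 3.30 FPKM in rsc2Δ beside 26.6 FPKM in WT and 26.6 FPKM in rtt102Δ, a ratio of -1.10; npl6Δ had 2.95 and htl1Δ 3.62 FPKM. COS6, COS9 and COS111 had ratios of 0.015, -0.10 and -0.21. The copies are alike enough to share reads, so values of single members are uncertain, and the family was singled out after its values were seen.

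The ratios were spread more widely near chromosome ends, where all these COS genes but COS111 lie. Of the 78 measured genes within 15 kb of an end, 14 (17.9%) were 2-fold higher in rsc2Δ and 12 (15.4%) 2-fold lower. Of the 5942 genes farther in, 3.45% were higher and 2.20% lower. The medians were -0.069 and -0.012, so genes near ends differed more often in both directions rather than on balance in one. Many genes near ends belong to repeated families and are at low levels, and the part of either in this spread was not tested. The 16 chromosome medians ran from -0.052 on chromosome XVI to 0.046 on chromosome XII. Chromosome I held 1 higher and 8 lower genes of 95. Lower genes also outnumbered higher ones on chromosomes III (6 and 5), VIII (9 and 5), IX (8 and 7) and XI (9 and 8). On all the rest higher genes were more numerous. Over all genes measured 3.64% were higher and 2.38% lower.

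Among the remaining genes with the 12 highest ratios, RPR1, the RNA of the tRNA-processing enzyme RNase P, was at 6.09 in rsc1Δ and 95.1 FPKM in rsc2Δ. It was at 4.98 to 11.3 FPKM in the other 4 libraries. This RNA is not polyadenylated as a mature molecule, so its level in a library selected for polyadenylated RNA need not follow its amount in the cell. The row of the small nucleolar RNA snR59, with a ratio of 2.59, spans the whole of RPL7B and its reads cannot be separated from those of that gene. DAN1, a wall mannoprotein made without oxygen, was at 1.02 in rsc1Δ and 14.8 FPKM in rsc2Δ. PHM6, a gene of unknown function induced by low phosphate, was at 14.2 in rsc1Δ and 90.3 FPKM in rsc2Δ, with rsc1Δ below all others and WT at 198 FPKM. ECM13 was at 3.36 in rsc1Δ and 30.2 FPKM in rsc2Δ, close to the 23.9 FPKM of htl1Δ, and ULI1 at 16.1 in rsc1Δ and 112 FPKM in rsc2Δ, where the other 4 had 7.40 to 12.5 FPKM. Of the phosphate genes, 1 of 25 was 2-fold higher, PHM6, and the median was -0.10; the acid phosphatase PHO5 had a ratio of -0.21 and the transporter PHO84 one of -0.16.

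Genes of sugar breakdown and respiration were on balance higher in rsc2Δ than in rsc1Δ. Of 15 glycolytic genes 11 were above 0, with a median of 0.66, beside -0.012 for all genes. The glyceraldehyde-3-phosphate dehydrogenase genes TDH1 and TDH2 passed 2-fold. TDH2 was at 2684 in rsc1Δ and 6139 FPKM in rsc2Δ, with 3592 to 4488 FPKM elsewhere, so rsc1Δ was the lowest and rsc2Δ the highest. TDH1 was at 399 in rsc1Δ and 989.8 FPKM in rsc2Δ, but npl6Δ had more, 1441 FPKM. The other abundant members had ratios of 0.84 for the mutase GPM1, 0.80 for TDH3, 0.80 for the aldolase FBA1, 0.75 for the enolase ENO2, 0.66 for the phosphoglycerate kinase PGK1, 0.33 for the isomerase TPI1 and 0.20 for the pyruvate kinase CDC19. Both phosphofructokinase subunits, PFK1 and PFK2, were lower in rsc2Δ, at -0.43 and -0.38. ADH1, the main ethanol-forming dehydrogenase, was at 8224 in rsc1Δ and 16527 FPKM in rsc2Δ, a ratio of 1.01. TDH1, TDH2 and TDH3 are near-identical in sequence, and reads may be split among them.

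In the tricarboxylic acid cycle 3 of 13 genes were 2-fold higher and none 2-fold lower, with 10 above 0 and a median of 0.39. They encode the consecutive enzymes aconitase and isocitrate dehydrogenase. ACO1 was at 66.8 in rsc1Δ and 195 FPKM in rsc2Δ, and at 82.2 to 93.0 FPKM in the other 4 libraries. IDH1 was at 125 in rsc1Δ and 274 FPKM in rsc2Δ, with 95.4 to 133 FPKM elsewhere, and IDH2 at 118 in rsc1Δ and 301 FPKM in rsc2Δ, with 97.1 to 169.6 FPKM. In each case rsc2Δ stood above the other 5 libraries, and the ratios were 1.53, 1.13 and 1.34. The locus of IDH2 overlaps another. The succinyl-CoA ligase genes LSC1 and LSC2 followed at 0.71 and 0.78, while citrate synthase CIT1 was at 0.18 and the first subunit of α-ketoglutarate dehydrogenase, KGD1, at -0.12.

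The respiratory chain had 25 of 29 genes above 0 and a median of 0.44, with 1 at least 2-fold higher and 0 at least 2-fold lower. The cytochrome oxidase subunit gene COX12 was at 316 in rsc1Δ and 935 FPKM in rsc2Δ, with 488 to 883 FPKM elsewhere. The lowest ratios were those of CYC7, the minor form of cytochrome c, and COX5B, an oxidase subunit, both of which are favoured at low oxygen. CYC7 was at 166 in rsc1Δ and 99.3 FPKM in rsc2Δ and COX5B at 270.1 in rsc1Δ and 165 FPKM in rsc2Δ, whereas their counterparts used in air, CYC1 and COX5A, were at 381 in rsc1Δ and 597 FPKM in rsc2Δ and 266 in rsc1Δ and 355 FPKM in rsc2Δ. The ratios were -0.73 and -0.70 for the former and 0.65 and 0.41 for the latter, so the members of each pair differed in opposite directions. In the other 4 libraries CYC7 was at 78.6 to 111 FPKM. For CYC7, rsc2Δ thus lay within the range of those libraries and rsc1Δ was the highest of all. ATP synthase had 12 of 16 measured genes above 0, a median of 0.58 and 3 genes past 2-fold, namely ATP20 (1.08), ATP15 (1.07) and ATP16 (1.01). The large subunits ATP1 and ATP2 were at -0.13 and 0.18. HAP4, the regulatory subunit of the activator of respiratory genes, was at 150.1 in rsc1Δ and 219 FPKM in rsc2Δ, a ratio of 0.54 and the highest level of the 6. ADR1, an activator of genes used on carbon sources other than glucose, was at 16.3 in rsc1Δ and 54.3 FPKM in rsc2Δ and at 17.9 to 32.0 FPKM elsewhere; it was named after its value was seen.

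The ratio varied with the length of the locus, and many of these respiratory genes are short. The median ratio was 0.10 for the loci of up to 200 bp, 0.26 for those of 201 to 300 bp, 0.14 for those of 301 to 500 bp and -0.10 for those of 2001 to 3000 bp, with -0.017 for longer loci. It thus fell over the classes from 201 to 3000 bp, while the shortest and the longest class departed from that slope. Against rsc1Δ, the medians at 201 to 300 bp and at 2001 to 3000 bp were 0.15 and 0.017 for npl6Δ and 0.091 and 0.026 for htl1Δ, a fall that was smaller than with rsc2Δ. They were -0.051 and 0.03 for WT and -0.018 and -0.04 for rtt102Δ. For rsc2Δ, the medians of the same classes were 0.31 and -0.13 over WT and 0.32 and -0.060 over rtt102Δ. Over npl6Δ they were 0.11 and -0.090, and over htl1Δ 0.19 and -0.13. Against every other library, the median for rsc2Δ was thus lower in the longer of these classes. When the median of its length class was subtracted from each gene, the list medians became 0.41 for ATP synthase, 0.35 for the respiratory chain, 0.47 for the tricarboxylic acid cycle and 0.75 for glycolysis. ATP20, ATP15, ATP16 and ADH1 then fell short of 2-fold. Ribosomal protein genes, whose loci are also short, had medians of 0.044 for the 75 of the large subunit and 0.025 for the 56 of the small subunit, which turned to -0.011 and -0.033. The mitochondrial ribosome, with 32 of 38 large-subunit genes above 0, went from 0.26 to 0.17. The source of the slope was not tested.

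**Figure D3:**
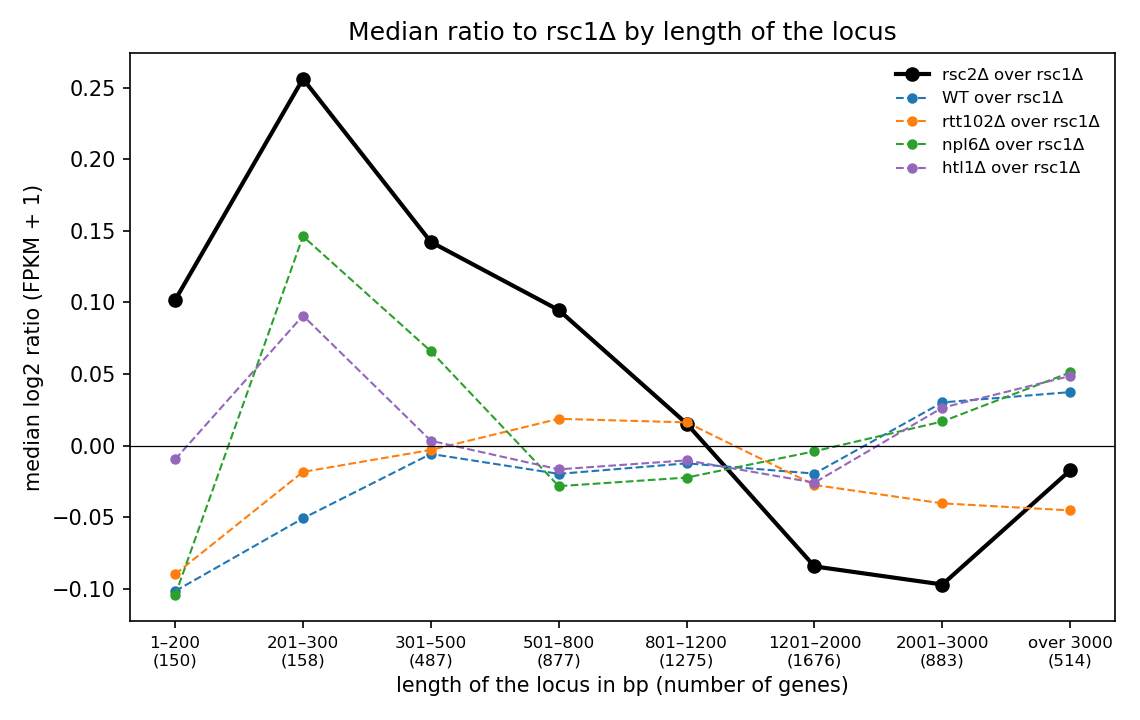
Median log2 ratio to rsc1Δ of the genes in 8 classes of locus length, in bp, for rsc2Δ (black, solid) and for the other 4 libraries (dashed), with the number of genes in each class. The black line falls from 0.26 at 201 to 300 bp to -0.10 at 2001 to 3000 bp.

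Among the lower genes, FDC1 (YDR539W, chromosome IV, 1512094 to 1513605), which encodes a decarboxylase of aromatic acids, had the largest difference of a locus that overlaps no other. It was at 63.7 in rsc1Δ and 5.84 FPKM in rsc2Δ, and at 49.6 in WT, 45.9 in rtt102Δ, 24.8 in npl6Δ and 28.7 FPKM in htl1Δ. The rsc2Δ library was the lowest and rsc1Δ the highest, 10.9 times that of rsc2Δ, for a ratio of -3.24. CHA1, the serine and threonine deaminase, was at 431 in rsc1Δ and 111 FPKM in rsc2Δ and at 261 to 746 FPKM elsewhere (ratio -1.95). ADH7, an aldehyde reductase gene near a chromosome end, was at 17.3 in rsc1Δ and 4.03 FPKM in rsc2Δ (ratio -1.87). The methyltransferase gene EFM6 was at 86.6 in rsc1Δ and 27.3 FPKM in rsc2Δ, the acetyltransferase gene AYT1 at 17.4 in rsc1Δ and 4.98 FPKM in rsc2Δ, and OM45, of the mitochondrial outer membrane, at 172 in rsc1Δ and 57.1 FPKM in rsc2Δ. In all 3 rsc1Δ was the highest of the 6 libraries and rsc2Δ the lowest. GSY1, a glycogen synthase, was at 101 in rsc1Δ and 32.2 FPKM in rsc2Δ, but npl6Δ and htl1Δ had less still, 22.1 and 23.3 FPKM, and its isoform GSY2 was higher in rsc2Δ, at 0.81. SSE2, a nucleotide exchange factor of Hsp70 chaperones, was at 81.7 in rsc1Δ and 26.1 FPKM in rsc2Δ (ratio -1.61). The remaining genes among the 12 lowest, VAM10, TPH3, PAU12 and CNE1, with ratios of -3.33, -1.73, -1.68 and -1.49, lie in loci that overlap another, where reads cannot be assigned without strand.

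Genes of adenine synthesis and of amino acid synthesis were on balance lower in rsc2Δ. Of 17 genes of adenine synthesis and its supply of phosphoribosyl groups, 14 were below 0, 2 at least 2-fold, with a median of -0.43. ADE2 was at 91.2 in rsc1Δ and 38.6 FPKM in rsc2Δ, with 67.1 to 92.3 FPKM in the other 4 libraries, and ADE8 at 288 in rsc1Δ and 128 FPKM in rsc2Δ, with 207 to 259 FPKM. In both rsc2Δ stood below the other 5, and the ratios were -1.22 and -1.17. ADE4, which encodes the first enzyme of the pathway, was at 130.4 in rsc1Δ and 68.2 FPKM in rsc2Δ (ratio -0.92), and its activator gene BAS1 at 36.3 in rsc1Δ and 25.5 FPKM in rsc2Δ (ratio -0.49). ADE13, at 0.40, was the highest. Of 44 amino acid synthesis genes known as targets of Gcn4, the activator of the response to amino acid starvation, 32 were below 0, with a median of -0.33, and rsc2Δ was the lowest of the 6 libraries at 21. After centring by length, the medians were -0.36 for the adenine genes and -0.27 for the amino acid genes. ARG3, of arginine synthesis, was at 12.9 in rsc1Δ and 5.66 FPKM in rsc2Δ, a ratio of -1.06. It was above WT, at 3.43 FPKM, in each of these deletions, and reached 149 FPKM in rtt102Δ. The rtt102Δ library also nearly lacked the transcripts of the marker genes CAN1 and LYP1, and the part of that difference in its ARG3 level was not tested.

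The ADE8 promoter (chrIV:1288810-1289109, minus strand) is shown because it holds, in capitals and as a close pair, the hexamer TGACTC that both Bas1 and Gcn4 are known to bind:
ADE8: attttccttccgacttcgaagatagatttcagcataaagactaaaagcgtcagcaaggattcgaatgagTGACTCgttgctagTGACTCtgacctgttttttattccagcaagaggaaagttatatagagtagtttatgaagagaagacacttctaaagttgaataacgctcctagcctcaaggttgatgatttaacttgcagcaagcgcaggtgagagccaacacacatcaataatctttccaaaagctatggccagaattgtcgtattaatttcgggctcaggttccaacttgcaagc
The hexamer, on either strand, was present in 7.98% of all promoter windows, in 7 of the 17 adenine genes and in 27 of the 44 amino acid genes. Adenine genes with it had a median ratio of -0.56 and those without it one of -0.21. For the amino acid genes the order was the other way, -0.32 with it and -0.47 without. Over all 454 measured genes with the hexamer the median was -0.066.

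Hexose transporters and glucose sensors were also mostly lower in rsc2Δ, 14 of 16 below 0 with a median of -0.21. After centring by length their median was -0.12. MIG2, a glucose-induced repressor, was at 81.7 in rsc1Δ and 30.9 FPKM in rsc2Δ, close to the 31.3 FPKM of npl6Δ, and HXT8 at 8.42 in rsc1Δ and 3.34 FPKM in rsc2Δ. HXT2, a transporter induced at low glucose, had the highest ratio, 0.93, at 636 in rsc1Δ and 1209 FPKM in rsc2Δ, and HXT1, a low-affinity transporter, was the other gene above 0, at 0.09. Ribosome biogenesis genes had 53 of 73 members below 0, with none past 2-fold and a median of -0.15. The median of the length class to which the list's median length belongs was -0.084, and after centring by length the list's median was -0.093.

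**Figure D4:**
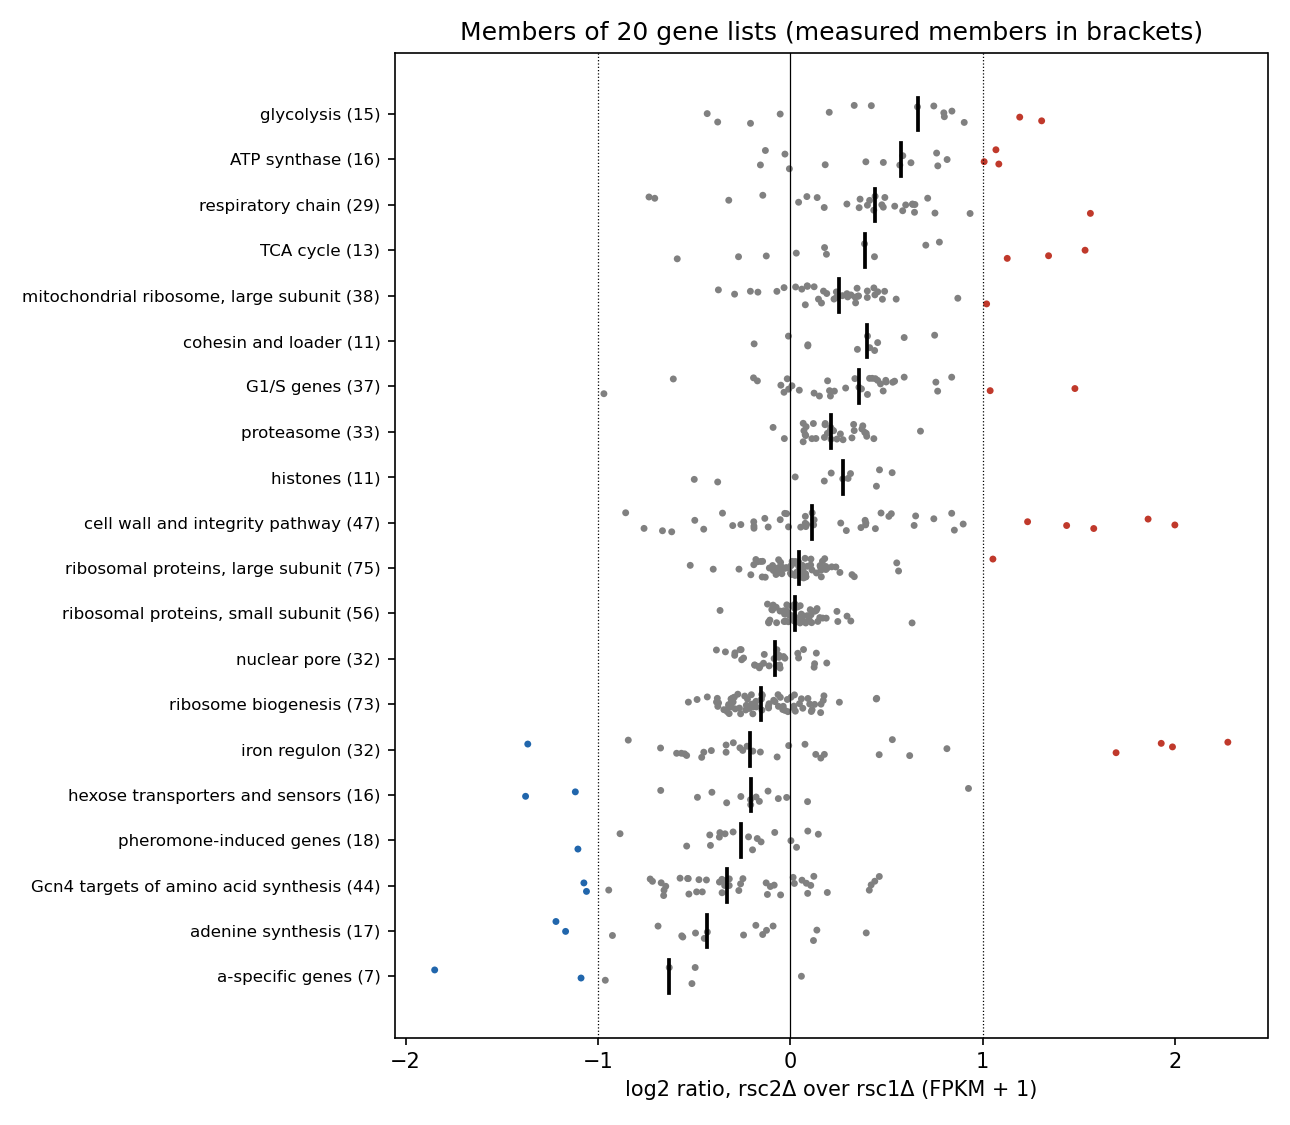
Log2 ratio of rsc2Δ over rsc1Δ for each measured member of 20 gene lists, with 1 point per gene, a black bar at the list's median and dotted lines at 2-fold. List medians ran from -0.63 for the a-specific genes to 0.66 for glycolysis, and single members passed 2-fold in both directions.

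Genes of S phase entry and chromosome cohesion were on balance higher in rsc2Δ. Of 37 genes transcribed at the start of S phase, 29 were above 0, 2 at least 2-fold, with a median of 0.36. YOX1, a repressor of cell cycle genes, was at 11.9 in rsc1Δ and 25.6 FPKM in rsc2Δ (ratio 1.04). The S-phase cyclin CLB5 was at 0.77, the replication protein A genes RFA1, RFA2 and RFA3 at 0.54, 0.53 and 0.50, and the primase gene PRI1 at -0.97. Cohesin and its loader had 9 of 11 genes above 0 and a median of 0.40, led by the loader gene SCC2 at 5.20 in rsc1Δ and 9.43 FPKM in rsc2Δ; 3 of these genes, SMC3, IRR1 and MCD1, also stand among the S phase genes. After centring by length the medians of the S phase and cohesin genes were 0.37 and 0.40. Of 22 genes of mitosis 18 were above 0, none past 2-fold, with a median of 0.16. The hexamer ACGCGT, the site of the S phase factor MBF, was present in 3.07% of all promoter windows and in 15 of the 37 S phase genes, 14 of which were above 0. All 177 measured genes with it had a median ratio of 0.25, beside -0.022 for the genes without it.

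Proteasome genes differed little but nearly all in the same direction. Of 33 genes 31 were above 0, none past 2-fold, with a median of 0.21 that was 0.20 after centring by length. The rsc2Δ library was the highest of the 6 at 21 of them. PRE7, a subunit of the catalytic core, led at 339 in rsc1Δ and 542 FPKM in rsc2Δ (ratio 0.68), and RPN3, of the regulatory particle, was lowest at 187 in rsc1Δ and 176 FPKM in rsc2Δ. RPN4, the activator of these genes, was at 98.9 in rsc1Δ and 108 FPKM in rsc2Δ (ratio 0.12). The PRE7 promoter (chrII:140997-141296, plus strand) is shown as an example of the element GGTGGCAAA, bound by Rpn4, in capitals:
PRE7: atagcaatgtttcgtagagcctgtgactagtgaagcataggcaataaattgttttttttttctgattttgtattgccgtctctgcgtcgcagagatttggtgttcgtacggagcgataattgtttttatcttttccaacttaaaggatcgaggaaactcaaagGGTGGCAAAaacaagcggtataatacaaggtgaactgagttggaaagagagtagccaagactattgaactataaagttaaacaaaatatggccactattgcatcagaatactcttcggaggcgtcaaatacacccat
The element, on either strand, was present in 1.20% of all promoter windows and in 27 of the 33 proteasome genes. Those with it had a median ratio of 0.21 and the others one of 0.27.

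Among genes of chromatin, which had no single direction, histone genes were above 0 at 9 of 11, with a median of 0.27 that centring by length lowered to 0.13. The exceptions were HTA1 and HTB1, a divergent pair for H2A and H2B, at -0.50 and -0.38, while the other pair, HTA2 and HTB2, was at 0.31 and 0.27. SWI/SNF, the remodeller closest to RSC, had a median of -0.049 over 9 genes, with none past 2-fold. Of the other remodelling ATPases ISW1 had the lowest ratio, -0.75, at 37.0 in rsc1Δ and 21.6 FPKM in rsc2Δ and 35.8 to 40.6 FPKM elsewhere, so that rsc2Δ stood below all 5 others. SIR2, the silencing deacetylase, was at 20.7 in rsc1Δ and 32.4 FPKM in rsc2Δ, and its paralog HST1 at 96.0 in rsc1Δ and 70.0 FPKM in rsc2Δ. The median of the 13 silencing genes was 0.013.

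Rsc3 and Rsc30, which are other subunits of RSC, bind CG-rich sequence, and the pentamer CGCGC was searched on both strands as a short form of it. It was present in 640 promoter windows, 10.7% of the total. It shares the letters CGCG with the ACGCGT hexamer above, but neither holds the other. Of the 584 measured genes with it, 5.65% were 2-fold higher and 1.88% 2-fold lower in rsc2Δ, with a median of 0.082. Of the 4897 without it, 2.84% were higher and 1.94% lower, with a median of -0.025. These shares describe the windows and were given no test.

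Both libraries held the transcripts specific to a cells, and these were on balance lower in rsc2Δ. STE2, the receptor for alpha-factor, was at 746 in rsc1Δ and 351 FPKM in rsc2Δ, with 727 FPKM in rtt102Δ and 543 FPKM in htl1Δ. The other libraries, WT and npl6Δ, had 6.43 and 4.97 FPKM. STE6, the exporter of a-factor, was at 78.6 in rsc1Δ and 39.9 FPKM in rsc2Δ, BAR1, the protease of alpha-factor, at 97.8 in rsc1Δ and 69.2 FPKM in rsc2Δ, and AGA2, an agglutinin subunit, at 552 in rsc1Δ and 387 FPKM in rsc2Δ. In these 4 genes rsc2Δ was the lowest of the 4 libraries with a-cell transcripts. MFA1, one of the a-factor genes, was at 29192 in rsc1Δ and 8104 FPKM in rsc2Δ (ratio -1.85), while the other, MFA2, was at 17692 in rsc1Δ and 18420.4 FPKM in rsc2Δ (ratio 0.058); their loci span 111 and 117 bp, and FPKM of such short loci is unreliable. Of 7 a-specific genes 6 were below 0, with a median of -0.63. Pheromone-induced genes had 14 of 18 below 0 and a median of -0.26, with SST2, the brake on pheromone signalling, at 69.4 in rsc1Δ and 31.8 FPKM in rsc2Δ.

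Genes of alpha cells were far below WT and npl6Δ in both. STE3, the a-factor receptor, was at 3.82 in rsc1Δ and 2.86 FPKM in rsc2Δ and was under the level filter, SAG1, the alpha-agglutinin gene, was at 24.3 in rsc1Δ and 27.4 FPKM in rsc2Δ and MF(ALPHA)2 at 37.9 in rsc1Δ and 33.2 FPKM in rsc2Δ. In WT these 3 genes were at 438, 1136 and 4057 FPKM. MF(ALPHA)1, the main alpha-factor gene, differed more between the deletions, at 1.03 in rsc1Δ and 12.1 FPKM in rsc2Δ, beside 58.0 FPKM in htl1Δ, 1.40 FPKM in rtt102Δ and 5083 FPKM in WT. Its ratio of 2.69 thus lay between levels far under that of WT.

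Single genes of the cell wall and its integrity pathway were higher in rsc2Δ by 2-fold or more. The 47 wall genes had a median of 0.11, with 5 at least 2-fold higher and 0 at least 2-fold lower. GSC2, the glucan synthase subunit induced by wall stress, was at 25.5 in rsc1Δ and 105 FPKM in rsc2Δ, and at 17.0 in WT, 14.4 in rtt102Δ, 52.8 in npl6Δ and 37.3 FPKM in htl1Δ. The rsc2Δ level was the highest of the 6, npl6Δ was next, and the ratio was 2.00. KDX1, a kinase-like gene of the integrity pathway, was at 9.81 in rsc1Δ and 38.3 FPKM in rsc2Δ, the mannoprotein gene NCW2 at 328 in rsc1Δ and 981 FPKM in rsc2Δ, the yapsin gene YPS3 at 64.4 in rsc1Δ and 176 FPKM in rsc2Δ and PIR3, of a family of wall glycoproteins, at 25.9 in rsc1Δ and 62.2 FPKM in rsc2Δ. The constitutive glucan synthase gene FKS1 was at 0.078, the kinase gene SLT2 at 0.29, and SCW4, a glucanase, was the lowest at -0.86. The 8 wall mannoprotein genes of anaerobic or cold growth had a median of 0.62, 7 were above 0, and 3 were past 2-fold, DAN1, TIR1 and PAU24. PAU24 belongs to a family of near-identical genes and lies in a locus that overlaps another. It was at 2.53 in rsc1Δ and 8.17 FPKM in rsc2Δ. PAU12, of the same family but outside this list, went the other way, at -1.68. TIR1 was at 90.3 in rsc1Δ and 194 FPKM in rsc2Δ, below the 331 FPKM of WT in both.

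Chaperone genes had a median of -0.043 over 29 genes. BTN2, which sorts misfolded proteins, was at 34.1 in rsc1Δ and 141 FPKM in rsc2Δ, and at 198 in WT, 238 in rtt102Δ, 18.9 in npl6Δ and 32.8 FPKM in htl1Δ. The level in rsc2Δ was below WT and rtt102Δ, and rsc1Δ was close to npl6Δ and htl1Δ, all far below WT, and the ratio was 2.02. HSP12, a small membrane-bound stress protein, was at 552 in rsc1Δ and 1345 FPKM in rsc2Δ, where WT had 43.8 FPKM and npl6Δ 2534 FPKM. CPR6, a cochaperone of Hsp90, was at 97.6 in rsc1Δ and 252 FPKM in rsc2Δ in a locus that overlaps another. The main Hsp90 and Hsp70 genes did not differ 2-fold. Of 29 general stress genes 19 were above 0, with a median of 0.16; SIP18, induced by drying, was at 11.7 in rsc1Δ and 45.4 FPKM in rsc2Δ on a locus of 240 bp.

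Some genes were measured and listed at 0 in 1 of the 2 libraries, and no ratio is given for them. They were YEL032C-A, YLR299C-A, YLR399W-A, FMP49, YDR169C-A and RUF23 in rsc1Δ, and RSC2, YPL136W and YDR034C-A in rsc2Δ. All but 3 of these 9, RUF23, YDR169C-A and YDR034C-A, lie in loci that overlap another, and those 3 span 254, 150 and 177 bp. YLR399W-A, for example, was at 134 FPKM in rsc2Δ and 158 to 235 FPKM in the other 4 libraries, and YLR299C-A at 137 FPKM and 159.8 to 447 FPKM. In total 915 of the 6020 genes lay in overlapping loci, among them 53 of the 219 higher and 43 of the 143 lower genes. The 915 include LDB7, MET17, IDH2, YPS3, CPR6, SIR2 and PAU24, whose values are given above. Of the 5481 measured genes that RefSeq lists as protein coding, 172 were higher and 106 lower, beside 219 and 143 of all 6020.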

How the data were processed

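RNA of 10 yeast cultures was sequenced, with 1 library per strain and medium. Per the labels' protocols, RNA was extracted with a RiboPure kit and captured on oligo-dT beads for sequencing on a HiSeq. Per the submitters' processing notes the tools were TopHat, Cufflinks and Cuffdiff, and the build sacCer3. The sources used here give neither their versions nor whether strand was kept. The deposited values used are FPKM, scaled by the authors within each table of 2 libraries; 9 tables were deposited and 3 were not used.

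Levels were divided by a factor per table, the median over genes of its WT value over that of the rsc1Δ table (0.977 for rsc2Δ, 0.995 to 1.03 for the others). Genes of rows that name 1 gene, with status OK in both tables and 5 FPKM or more in 1 library, were compared by log2 ratios with a pseudocount of 1 FPKM, which understates differences of low genes. A 2-fold rule of size, a log2 ratio of 1, stood in for a test. Symbols came from RefSeq R64, which matched 5859 of 6816 identifiers, 5381 with the same coordinates. Rows naming several genes (115) were left out. Coordinates of genes are those of the tables. Promoter windows ran from 250 bases before to 50 after the RefSeq start. Depth was estimated from the steps of low values, 97.1% and 100% of which were whole fragments to within 0.1 in rsc1Δ and rsc2Δ; no counting interval was made.

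The members and the 58 gene lists were chosen with earlier results of these data known. Of the lists, 57 had at least 3 measured members; the other, of plasmid genes, was not analysed here. Genes were named by rule: RSC subunits, the 12 highest and 12 lowest ratios at loci of 300 bp or more, up to 4 members per list past 2-fold and each list's extremes, markers, mating-type genes and genes listed at 0 in 1 library. Some genes that this rule names are not reported here. Other list members named are for context, and the COS family and ADR1 were added after their values were seen. Alternatives were other pseudocounts, filters, scalings, limits and sets of rows. The procedure was tested on simulated data. Python 3.11.15, pandas 2.3.3, NumPy 2.4.6 and Matplotlib 3.10.9 were used.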

Additional observations from a re-analysis of the deposited data

How the results depend on the processing

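No paired analysis was possible because each strain had 1 library, so neither a replicate could be left out nor a block fitted. The 219 higher and 143 lower genes became 126 and 55 with a pseudocount of 10 FPKM, 588 and 539 at a limit of 0.58 on the log2 scale, and 38 and 15 at a limit of 2. Under the other 13 alternatives both counts stayed within 1.5 times, from 166 to 249 higher and from 100 to 158 lower. The fewest were without overlapping loci, which were left out after the data had been seen, as were genes that are not protein coding (172 and 106). Higher genes made up 60.5% of calls, 52.2% at the limit of 0.58 and 71.7% at the limit of 2.

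No named gene past 2-fold changed sign under the 8 settings in which single genes were recomputed. With a pseudocount of 10 FPKM 26 of the 81 named genes past 2-fold fell below it, among them COS5, COS7, COS10, FIT1, ARG3 and SST2. Without the table factor, or with the ribosomal protein median at 0, ATP16, MRPL44 and ADH1 fell below 2-fold. Centring by length, an alternative added after the data had been seen, took 8 below it (ATP15, ATP16, ATP20, MRPL44, ADH1, POT1, HUG1 and MEK1) and changed the sign of 8 of 57 list medians, all within 0.1 of 0. With a filter of 20 FPKM the median of fatty acid oxidation genes went from -0.24 to 0.41, as fewer of its genes were measured. Precision is limited by 1 library per strain and, for short or low loci, by few fragments.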

Other observations

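Further gene lists were compared between rsc2Δ and rsc1Δ. Ergosterol synthesis had 17 of 26 genes above 0 and a median log2 ratio of 0.22, but ERG20, the farnesyl diphosphate synthase, was 2-fold lower, at 431 in rsc1Δ and 208 FPKM in rsc2Δ and 396 to 435 FPKM in the other 4 libraries. All 6 measured genes of arginine breakdown and proline use were above 0, led by the general amino acid permease GAP1 at 8.21 in rsc1Δ and 20.1 FPKM in rsc2Δ, with a median of 0.40. Sulfate assimilation had 20 of 31 genes above 0 and a median of 0.14. In one-carbon metabolism GCV1, of the glycine cleavage system, was at 64.3 in rsc1Δ and 22.6 FPKM in rsc2Δ, a ratio of -1.47. Of the thiamine genes THI4, which makes the thiazole ring, was at 4.66 in rsc1Δ and 21.6 FPKM in rsc2Δ and the transporter THI7 at 61.7 in rsc1Δ and 159 FPKM in rsc2Δ, while the list's median was -0.21. ALD6, the cytosolic acetaldehyde dehydrogenase, was at 687 in rsc1Δ and 1679 FPKM in rsc2Δ, below the 3695 FPKM of npl6Δ. Mitochondrial import genes had a median of 0.18, glyoxylate and gluconeogenesis genes one of -0.11, and fatty acid oxidation genes one of -0.24. The medians were -0.057 for GMP synthesis, -0.11 for pyrimidine synthesis, -0.038 for phospholipid synthesis and 0.0064 for RNA polymerase I, with none of their genes past 2-fold. Multidrug resistance genes had a median of 0.052, amino acid permeases one of -0.0058 and the HAP and retrograde regulators one of -0.028.

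Nuclear pore genes had 25 of 32 members below 0, a median of -0.077 and a range from -0.38 to 0.19. Among genes of the nuclear envelope, with a median of -0.13, BRR6, of lipid homeostasis in that membrane, was lowest at 53.4 in rsc1Δ and 27.8 FPKM in rsc2Δ, with 42.9 to 52.0 FPKM elsewhere. Spindle pole body genes had a median of 0.14, tubulins and spindle motors one of 0.21, and kinetochore genes one of 0.11. Of the kinetochore genes HSK3, a subunit of the Dam1 ring on a locus of 210 bp, was 2-fold lower, at 511 in rsc1Δ and 228 FPKM in rsc2Δ and 399 to 544 FPKM elsewhere. Daughter-cell genes had a median of 0.094 and DNA damage genes one of 0.23. Meiosis genes had 3 members 2-fold lower and 1 2-fold higher of 28. NDT80 and IME1, the activators of that programme, were at 20.4 in rsc1Δ and 7.44 FPKM in rsc2Δ and at 21.3 in rsc1Δ and 9.68 FPKM in rsc2Δ; both are low in growing cells. Filamentation genes had a median of -0.049 and the other remodelling ATPases one of -0.26. Glycogen and trehalose genes had a median of -0.10 and ethanol and acetate enzymes one of -0.12.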
